A study of Mus musculus with 9 samples.

Results

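The transcripts described here belong to MHC class I and its peptide supply, in RNA-seq libraries of mouse hippocampus. The 10 genes were given as a list of names. They were the classical heavy chains H2-K1 and H2-D1, the non-classical heavy chains H2-T22 and H2-T23, the light chain B2m, the peptide transporter genes Tap1 and Tap2, the loading factor Tapbp, and the immunoproteasome subunits Psmb8 and Psmb9. All 10 were found among the 47643 genes of the count matrix, and all 10 passed the filter on low counts in every comparison.

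Each of 3 groups had 3 libraries. MRL/mpj mice carry an intact Fas gene and served as controls. MRL/lpr mice carry the Fas lpr allele, an insertion that disrupts this death receptor and leads to lymphoproliferation and autoantibodies, and are listed as untreated. MRL/lpr+MSC mice carry the same allele and received mesenchymal stem cells, whose dose, route and source are not given in the sources used here. All animals were at postnatal week 6. The series text names the lupus strain as MRL/MpJ-Fas lpr on the MRL background, whereas the strain entry of every library reads C57BL/6. The series title describes PBS as the comparison for the stem cells, which the entry for untreated mice does not mention. The sources speak of 1 animal per heat map column, and no label links libraries to litters or batches, so p-values measure the spread between these libraries.

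Class I molecules display peptides of the cell's own proteins to CD8 T cells. Proteasomes cut the peptides, and the immunoproteasome subunits replace constitutive catalytic subunits in cells exposed to interferon. The TAP transporter moves the peptides into the endoplasmic reticulum, where tapasin helps to load them onto a heavy chain paired with beta-2-microglobulin. In the brain these genes are best known in microglia and endothelium, and in some neurons, where they have been studied for roles at synapses.

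A reservation about the groups precedes the results. In an expression table that accompanies the study, the columns headed MRL/lpr follow, gene by gene, the libraries that the labels place in MRL/lpr+MSC, while the MRL/mpj columns follow the MRL/mpj libraries. Groups are named here by their labels, and which naming is right cannot be told from the files. A contrast of all 6 MRL/lpr libraries with MRL/mpj does not depend on it and is given beside the others. The lpr insertion lies within Fas, and counts over the whole gene do not check it: Fas stood at 1.63 to 1.997 CPM (read counts scaled to the library's size, per 1000000 counts) in MRL/mpj, 1.33 to 2.27 in MRL/lpr and 0.985 to 1.81 in MRL/lpr+MSC. Library totals ran from 19475804 to 26912031 counts, and the mitochondrial share from 3.72% to 5.48%. Hippocampal neuron markers were present in every library, with a summed level of 10830.4 to 11398 CPM in MRL/mpj, 6315 to 9744 CPM in MRL/lpr and 7396 to 10535 CPM in MRL/lpr+MSC, so that all 6 MRL/lpr libraries lay below every control. Markers of the choroid plexus, which adjoins the hippocampus, were uneven, with a sum of 101.8 to 9743 CPM that was highest in replicate 2 of both MRL/lpr groups. This marker sum was lower in MRL/lpr replicate 3 (110.7 CPM) than in every MRL/mpj library (169.9 to 719 CPM).

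The stretches before the transcription starts of 3 genes are shown because they stand for a classical heavy chain (H2-K1), the light chain (B2m) and a non-classical heavy chain (H2-T22), and class I promoters are known to share elements for NF-kB and interferon signals. They are the 250 bases before the RefSeq start, in build GRCm38.p6 and in the reference genome's sequence, not that of the MRL strains. Capitals mark matches to any of 5 motifs searched on both strands: an interferon response element (GAAA, any 2 bases, GAAA), a gamma interferon activation element written TTCNNNGAA, the NF-kB consensus, the cyclic AMP response element core TGACG and the CCAAT box, none of which was allowed mismatches.
H2-K1, chr17:34000348-34000597, minus strand: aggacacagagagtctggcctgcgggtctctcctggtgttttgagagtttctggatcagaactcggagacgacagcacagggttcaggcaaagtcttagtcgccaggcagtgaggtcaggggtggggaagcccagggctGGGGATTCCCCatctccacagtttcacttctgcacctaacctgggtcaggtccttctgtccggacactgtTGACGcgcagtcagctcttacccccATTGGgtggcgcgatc
B2m, chr2:122147437-122147686, plus strand: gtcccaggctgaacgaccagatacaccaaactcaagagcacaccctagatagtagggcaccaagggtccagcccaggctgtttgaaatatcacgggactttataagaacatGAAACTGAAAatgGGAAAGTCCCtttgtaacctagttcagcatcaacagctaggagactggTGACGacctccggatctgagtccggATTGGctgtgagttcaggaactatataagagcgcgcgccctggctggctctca
H2-T22, chr17:36042743-36042992, minus strand: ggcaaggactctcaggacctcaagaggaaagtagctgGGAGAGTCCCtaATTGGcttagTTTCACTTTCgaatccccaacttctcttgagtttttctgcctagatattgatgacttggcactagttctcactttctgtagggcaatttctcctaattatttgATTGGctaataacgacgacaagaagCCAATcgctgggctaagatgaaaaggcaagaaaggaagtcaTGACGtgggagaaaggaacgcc

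Promoter windows of 300 bases, 250 before and 50 after the start, were listed for 9 of the 10 genes. An exact match to the interferon response element was found in 3 of these 9 (H2-T22, H2-T23 and B2m), against 3.49% of 27025 promoter windows of the same length. Sites that depart from the pattern, in H2-K1 and H2-D1 too, would be missed. The NF-kB consensus was found in 4 of 9 (H2-K1, H2-D1, H2-T22 and B2m), against 8.18% of all windows. The cyclic AMP response element core stood in 6 of 9, against 21.0%, and the CCAAT box in 8 of 9, against 37.9%. The windows of Tap1 (chr17:34187306-34187605) and Psmb9 (chr17:34187281-34187580) overlap on opposite strands. Their matches to these motifs are the same sites, counted for each gene, so the 9 windows are not all separate. The gamma interferon activation element stood in 1 of 9, that of Psmb8, against 8.47%. The heavy chain genes H2-K1 and H2-D1, whose transcripts behaved differently, matched each other at 29 of 30 bases around the NF-kB match.
H2-K1, chr17:34000438-34000467, minus strand: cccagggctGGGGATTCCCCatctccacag
H2-D1, chr17:35262914-35262943, plus strand: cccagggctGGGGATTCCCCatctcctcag
These are matches of letters and were not measured as binding.

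B2m encodes the light chain shared by all class I molecules and was the most abundant of the 10 transcripts per length. In the MRL/mpj libraries B2m stood at 69.6, 56.8 and 63.9 CPM. In the MRL/lpr libraries it stood at 399.6, 210.1 and 176 CPM, and in MRL/lpr+MSC at 90.6, 137 and 149 CPM. No library of either MRL/lpr group fell into the range of the controls, and the MRL/lpr libraries all lay above the MRL/lpr+MSC libraries. B2m exceeded MRL/mpj in MRL/lpr by 1.96 ± 0.30 on the log2 scale (SE, n = 3 per group), with an adjusted p of 0.0176 by limma voom. It was higher in MRL/lpr+MSC than in MRL/mpj by 0.96 ± 0.19, with an adjusted p of 0.0411 by limma voom.

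H2-T23 encodes Qa-1, a non-classical heavy chain recognised by NK cell receptors. It had the largest fold change of the 10 genes against MRL/mpj in both groups. Its CPM were 1.10, 4.51 and 2.61 in MRL/mpj, 67.6, 34.4 and 21.5 in MRL/lpr, and 11.5, 13.2 and 16.1 in MRL/lpr+MSC. The 3 groups did not overlap. The log2 fold change was 3.95 ± 0.93 for MRL/lpr (adjusted p = 0.0484, limma voom) and 2.49 ± 0.42 for MRL/lpr+MSC (adjusted p = 0.0259). H2-T22, a non-classical heavy chain seen by some gamma delta T cells, stood at 1.75, 6.36 and 5.33 CPM in MRL/mpj. It reached 28.2, 17.8 and 17.1 CPM in MRL/lpr and 10.4, 11.3 and 16.4 CPM in MRL/lpr+MSC, again with no overlap between groups. The difference of MRL/lpr from MRL/mpj was 2.39 ± 0.48 (log2, adjusted p = 0.0343). That of MRL/lpr+MSC was 1.66 ± 0.44 and did not pass (adjusted p = 0.0837, limma voom).

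H2-K1 and H2-D1 encode the classical heavy chains that present peptides to CD8 T cells. H2-K1 stood at 19.97, 1.93 and 12.8 CPM in MRL/mpj, 168, 79.6 and 42.2 CPM in MRL/lpr, and 16.9, 27.3 and 30.1 CPM in MRL/lpr+MSC. All MRL/lpr libraries lay above all MRL/mpj libraries, but the controls themselves differed by a factor of 10.3, and the log2 fold change of 3.49 ± 0.99 did not pass (adjusted p = 0.0738, limma voom). H2-D1 did not follow the other genes. It stood at 112, 4.21 and 98.8 CPM in MRL/mpj, 50.1, 18.5 and 18.8 CPM in MRL/lpr, and 4.93, 10.9 and 12.7 CPM in MRL/lpr+MSC. In MRL/mpj replicates 1 and 3 it was above every MRL/lpr library, and in MRL/mpj replicate 2 below every one. Against the controls its difference had no clear sign for MRL/lpr (-0.33 ± 1.31 on the log2 scale, adjusted p = 0.888) or MRL/lpr+MSC (-1.90 ± 1.72, adjusted p = 0.563).

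**Figure D1:**
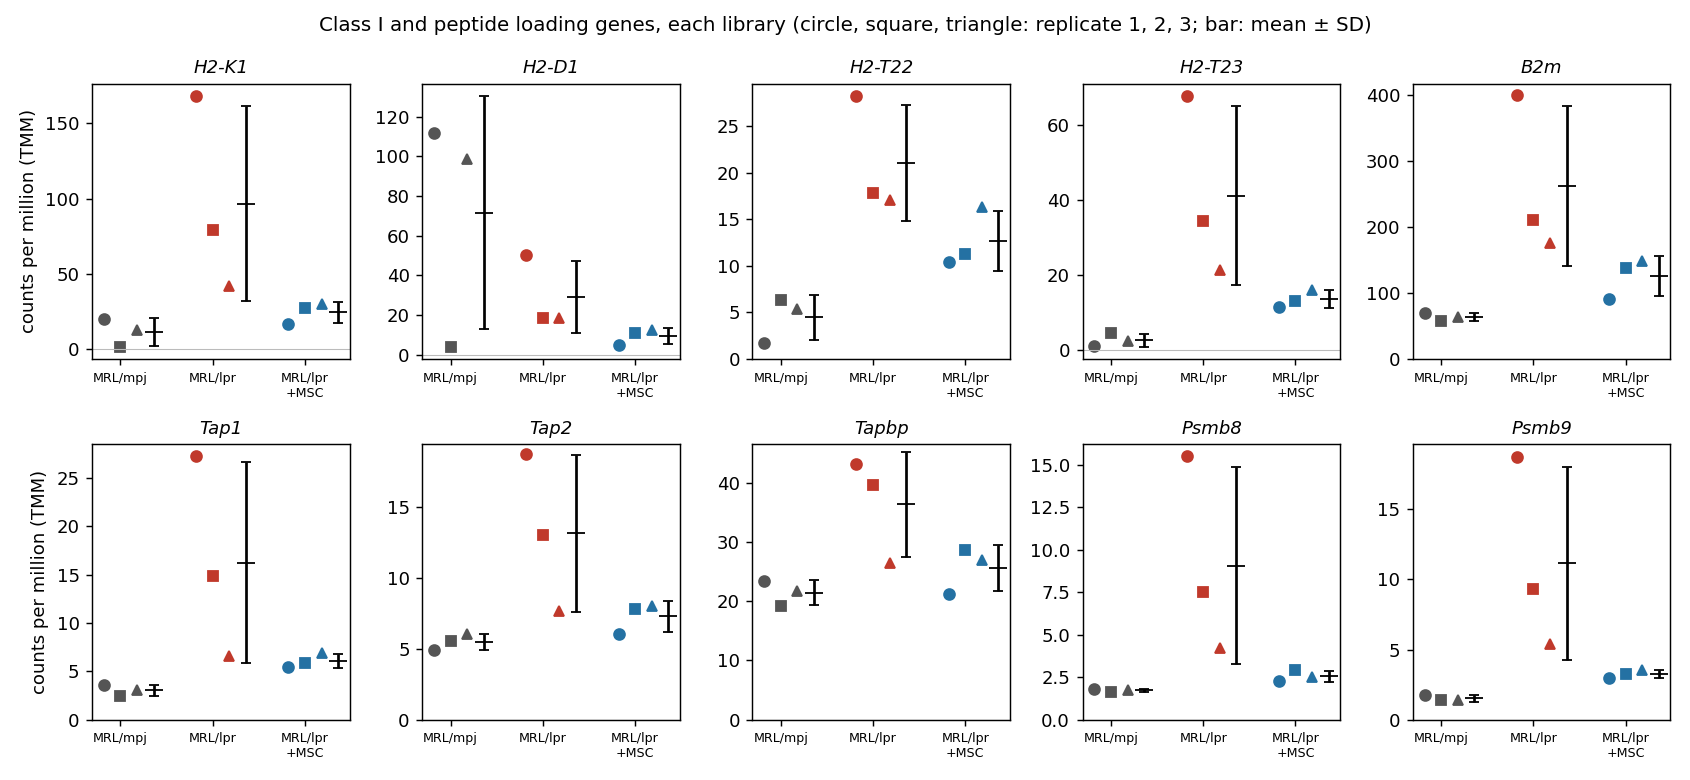
Levels of the 10 genes in each library, in TMM-scaled CPM on linear axes that start at 0, with the mean and SD of each group's 3 libraries. For 9 genes every MRL/lpr library lies above every MRL/mpj library, whereas H2-D1 is highest in MRL/mpj replicates 1 and 3 (112 and 98.8 CPM) and lowest in replicate 2 (4.21 CPM).

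Tap1 and Tap2 together encode the peptide transporter. Tap1 stood at 3.59, 2.45 and 3.05 CPM in MRL/mpj, 27.2, 14.8 and 6.59 CPM in MRL/lpr, and 5.497, 5.895 and 6.89 CPM in MRL/lpr+MSC. In MRL/lpr the log2 fold change of 2.27 ± 0.76 did not pass (adjusted p = 0.105), while the smaller but more even change of 1.04 ± 0.20 in MRL/lpr+MSC did (adjusted p = 0.0334, limma voom). Tap2 differed less. Its CPM were 4.89, 5.54 and 6.04 in MRL/mpj, 18.7, 13.05 and 7.69 in MRL/lpr, and 6.02, 7.85 and 7.999 in MRL/lpr+MSC, where the lowest library reached into the control range. The log2 fold changes of Tap2 were 1.21 ± 0.40 (adjusted p = 0.103) and 0.42 ± 0.17 (adjusted p = 0.205), and neither passed.

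Tapbp encodes tapasin, which bridges the transporter and the empty heavy chain. Its CPM were 23.4, 19.3 and 21.7 in MRL/mpj, 43.1, 39.6 and 26.4 in MRL/lpr, and 21.3, 28.7 and 26.9 in MRL/lpr+MSC. The MRL/lpr libraries all exceeded the controls, and the lowest MRL/lpr+MSC library did not. The log2 fold change was 0.75 ± 0.21 in MRL/lpr (adjusted p = 0.0704) and 0.27 ± 0.14 in MRL/lpr+MSC (adjusted p = 0.297, limma voom).

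Psmb8 and Psmb9 encode catalytic subunits of the immunoproteasome. Psmb8 stood at 1.80, 1.63 and 1.74 CPM in MRL/mpj, 15.5, 7.49 and 4.22 CPM in MRL/lpr, and 2.28, 2.92 and 2.52 CPM in MRL/lpr+MSC. Psmb9 stood at 1.80, 1.38 and 1.42 CPM in MRL/mpj, 18.7, 9.30 and 5.37 CPM in MRL/lpr, and 3.01, 3.25 and 3.54 CPM in MRL/lpr+MSC. For both genes the 3 groups were separate, with MRL/lpr+MSC between the others. The log2 fold changes in MRL/lpr were 2.24 ± 0.68 for Psmb8 (adjusted p = 0.0836) and 2.73 ± 0.73 for Psmb9 (adjusted p = 0.0649). In MRL/lpr+MSC, Psmb9 passed at 1.10 ± 0.21 (adjusted p = 0.0320), and Psmb8 did not at 0.58 ± 0.20 (adjusted p = 0.149, limma voom).

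The question of the first comparison was how the lupus-prone hippocampus differs from the control. Called here means a Benjamini-Hochberg adjusted p under 0.05 over all genes tested and a difference of 1.5-fold or more. In MRL/lpr against MRL/mpj, 3 of the 10 genes were called higher (B2m, H2-T22 and H2-T23) and 0 lower, where 3.41% of 16697 genes were called higher. A further 6 were at least 1.5-fold higher without passing, and 9 had MRL/lpr libraries wholly above the controls, against 19.4% of all genes. All 9 were higher at an unadjusted p under 0.05 by limma voom, against 15.7% of all genes. The median log2 fold change of the 10 genes was 2.25, and that of all genes tested was 0.02.

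In MRL/lpr+MSC against MRL/mpj, 4 of the 10 genes were called higher (H2-T23, Psmb9, Tap1 and B2m), against 1.93% of 16196 genes. With all 9 libraries in one fit 0 of the 10 passed by limma voom, with adjusted p of 0.160 for H2-T23, 0.443 for Psmb9, 0.481 for Tap1 and 0.120 for B2m. The count was also 0 without MRL/mpj replicate 1 or 3 and without MRL/lpr+MSC replicate 2 or 3, and 2 without MRL/mpj replicate 2. Wholly above the controls were 6 genes, against 15.2% of all. The median log2 fold change was 1.00 for the 10 genes and 0.01 for all genes. Both comparisons use the same 3 control libraries. With all 6 MRL/lpr libraries against the controls, B2m (log2 fold change 1.45 ± 0.25, adjusted p = 0.0127), H2-T22 (2.02 ± 0.44, adjusted p = 0.0277) and H2-T23 (3.21 ± 0.79, adjusted p = 0.0412) were called, against 2.65% of 17113 genes called higher. In this contrast 6 of the 10 genes had every MRL/lpr library above every control, against 9.96% of all genes. These calls are fragile. Without any 1 of the MRL/mpj libraries, 0 genes of the 10 were called in MRL/lpr against MRL/mpj, and without MRL/lpr replicate 3 there were 8. Over all 6 MRL/lpr libraries there were 0 or 1 without any 1 of the MRL/mpj libraries, 1 without MRL/lpr+MSC replicate 2 or 3, and 8 without MRL/lpr replicate 3.

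MRL/lpr+MSC was compared with MRL/lpr to ask whether the stem cells altered these transcripts. All 10 fold changes were negative, with a median of -1.34 on the log2 scale where that of all genes was 0.00. The largest was that of H2-K1, at -1.76 ± 0.54 (95% interval -3.06 to -0.46). B2m was lower by -0.99 ± 0.33 (-1.80 to -0.18), and Tapbp had the smallest difference, -0.48 ± 0.22 (-0.999 to 0.04). By limma voom 0 of the 10 genes, and 0% of all 16758 genes, were called lower, with an adjusted p of 0.921 for each of the 10. At an unadjusted p under 0.05, 7 of the 10 genes were lower, against 2.64% of all genes, and 647 genes differed in either direction. The same 7 genes, all but Tap1, Tap2 and Tapbp, had MRL/lpr+MSC libraries wholly below the MRL/lpr libraries, against 5.71% of all genes. limma-trend and library quality weights also called 0 of the 10. T and NK cell markers moved the same way here: of 8 tested, 0 were called and 7 had an unadjusted p under 0.05, with a median log2 fold change of -2.63. Markers near 0 in MRL/lpr+MSC, such as Cd3e, passed the filter only through the MRL/lpr libraries, which favours negative values. The part of T and NK cells in the lower levels was not tested.

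**Figure D2:**
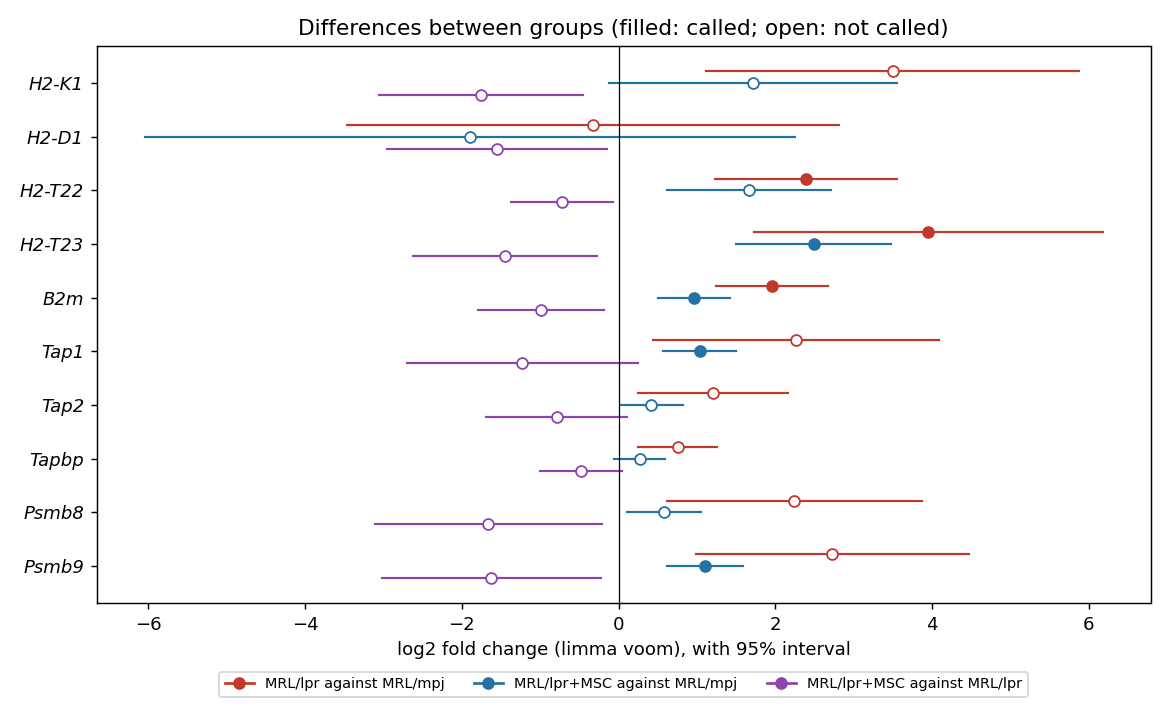
Log2 fold changes of the 10 genes with 95% intervals from limma voom, for each MRL/lpr group against MRL/mpj and for the MRL/lpr groups against each other, filled where called. The intervals against MRL/mpj lie above 0 for 9 genes in MRL/lpr, and all 10 point estimates of MRL/lpr+MSC against MRL/lpr lie below 0 with none called.

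Within each group most of the genes shared an order of the libraries. MRL/lpr replicate 1 had the highest and replicate 3 the lowest level for 9 of the 10 genes, an order held by 14.6% of 17113 genes. In MRL/lpr+MSC, replicate 3 was highest and replicate 1 lowest for 8 of the 10, an order held by 20.3% of all genes. For 7 of the 10, MRL/mpj replicate 1 was highest and replicate 2 lowest, an order held by 15.8% of all genes. H2-T22 and H2-T23 had the reverse there, and Tap2 was highest in MRL/mpj replicate 3. The spread in MRL/lpr was wide. Psmb9 had a coefficient of variation of 61.7% there, against 15.2% in MRL/mpj and 8.09% in MRL/lpr+MSC. For B2m these values were 46.1%, 10.1% and 24.6%.

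Levels of different genes were compared per length, as CPM per kilobase of exon. B2m led in every group, at 73.8 in MRL/mpj, 304 in MRL/lpr and 146 in MRL/lpr+MSC, and did not overlap with the next gene. Averaged over the 9 libraries, B2m exceeded Psmb8, the lowest, by a factor of 132. By the deposited FPKM values Psmb9 was the lowest, as it was per kilobase in MRL/mpj. Second was H2-D1 in MRL/mpj, at 27.8 per kilobase, and H2-K1 in both MRL/lpr groups, at 32.9 and 8.42. From H2-D1 downwards in MRL/mpj, each gene overlapped with its neighbour in the order. In MRL/lpr the steps without overlap were those after B2m and after H2-T22. In MRL/lpr+MSC they were those after B2m, Tapbp, Tap2 and Tap1.

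Ratios within a library do not depend on its scaling. The immunoproteasome subunit Psmb8 takes the place of Psmb5, and Psmb9 that of Psmb6. Per exon base, the Psmb8/Psmb5 ratio was 0.0143 to 0.0183 in MRL/mpj, 0.0475 to 0.194 in MRL/lpr and 0.0254 to 0.0376 in MRL/lpr+MSC. The Psmb9/Psmb6 ratio was 0.00811 to 0.0110 in MRL/mpj, 0.0323 to 0.118 in MRL/lpr and 0.0191 to 0.0222 in MRL/lpr+MSC. The 3 groups did not overlap in either ratio, and the constitutive subunit stayed the more abundant in every library. The third pair, Psmb10 over Psmb7, was 0.765 to 0.856 in MRL/mpj, 0.843 to 1.25 in MRL/lpr and 0.870 to 1.05 in MRL/lpr+MSC. Psmb10, the remaining inducible catalytic subunit, differed by 0.20 ± 0.12 on the log2 scale in MRL/lpr (adjusted p = 0.299) and 0.15 ± 0.13 in MRL/lpr+MSC (adjusted p = 0.541, limma voom). The H2-K1/H2-D1 ratio was 0.157, 0.403 and 0.114 in MRL/mpj, and 1.98 to 3.77 over the 6 MRL/lpr libraries.

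**Figure D3:**
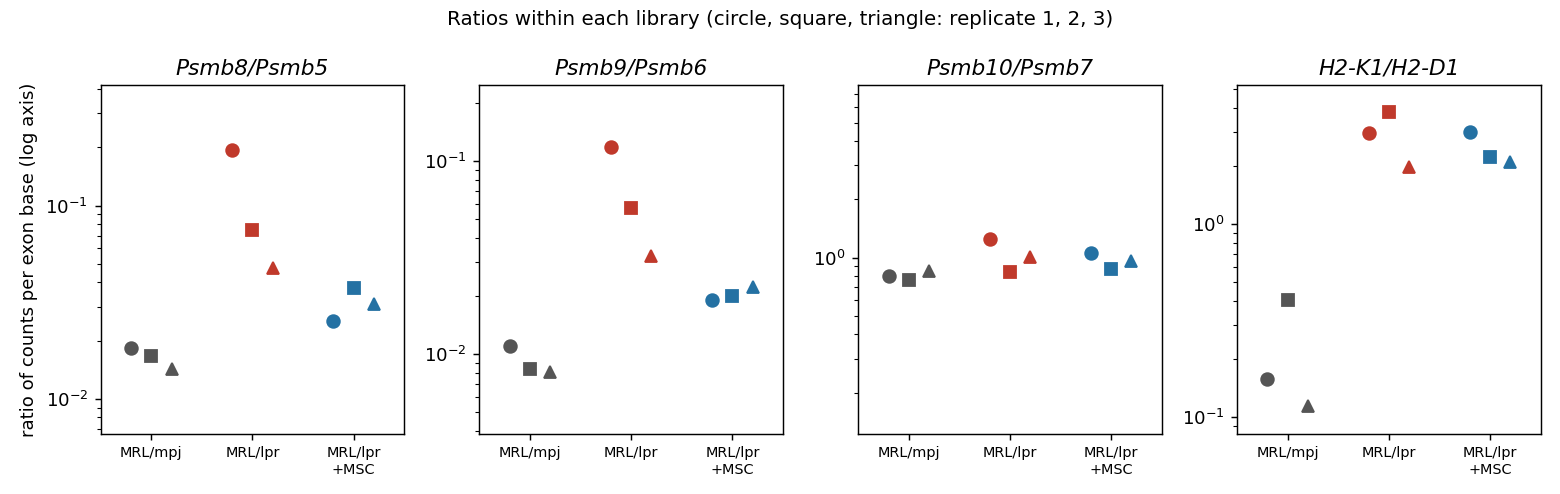
Ratios of counts per exon base within each library, on log axes of equal span. Psmb8/Psmb5 and Psmb9/Psmb6 separate the 3 groups, Psmb10/Psmb7 stays between 0.765 and 1.25, and H2-K1/H2-D1 is at most 0.403 in MRL/mpj and at least 1.98 in the other libraries.

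The other genes of the pathway are described by list. Of 32 constitutive proteasome genes, 0 were called in any comparison by limma voom (4 had an unadjusted p under 0.05 in each MRL/lpr group against MRL/mpj), and their median log2 fold change was -0.11 in MRL/lpr and -0.09 in MRL/lpr+MSC against MRL/mpj. Of the 32, 1 was positive in MRL/lpr and 2 in MRL/lpr+MSC. Their summed level was 2907 to 3031 CPM in MRL/mpj, 2631 to 2843 CPM in MRL/lpr and 2705 to 2883 CPM in MRL/lpr+MSC, all 6 MRL/lpr libraries being below the controls. Psmb5 stood at -0.24 ± 0.12 in MRL/lpr (adjusted p = 0.245), Psmb6 at -0.04 ± 0.06 (adjusted p = 0.678) and Psmb7 at -0.15 ± 0.08 (adjusted p = 0.252). Of 14 other loading and trimming genes tested, 3 were called higher in MRL/lpr and 0 lower, with a median of 0.13. They were Psme2, part of the PA28 proteasome activator (0.59 ± 0.12, adjusted p = 0.0342), the peptide trimming enzyme Erap1 (0.83 ± 0.18, adjusted p = 0.0352) and the tapasin relative Tapbpl (1.13 ± 0.27, adjusted p = 0.0476). For MRL/lpr+MSC 0 of these 14 were called by limma voom, 6 had an unadjusted p under 0.05, and their median was 0.18. The general chaperones of the loading complex differed little in MRL/lpr: Calr by 0.15 ± 0.08 (adjusted p = 0.260), Canx by 0.11 ± 0.07 (adjusted p = 0.287) and Pdia3 by 0.05 ± 0.09 (adjusted p = 0.737).

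Among 28 other class I heavy chain genes, few passed the filter. Of 9 tested in MRL/lpr, 1 was called, Mr1, which presents microbial vitamin metabolites to MAIT cells (1.02 ± 0.19, adjusted p = 0.0251). Of 7 tested in MRL/lpr+MSC, 1 was called, H2-Q4 (1.84 ± 0.31, adjusted p = 0.0234). H2-Q4 stood at 2.35, 2.66 and 1.90 CPM in MRL/mpj and 6.22, 7.75 and 11.4 CPM in MRL/lpr+MSC. In MRL/lpr it was higher still, at 51.1, 16.5 and 14.4 CPM, though not called there. H2-T24 was called with all 6 MRL/lpr libraries (1.44 ± 0.34, adjusted p = 0.0350, limma voom). The median log2 fold changes of this list were 0.66 in MRL/lpr and 0.09 in MRL/lpr+MSC.

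Regulators of class I transcription moved in part. Of 20 tested, 2 were called higher in MRL/lpr and 0 lower, with a median of 0.41. They were Irf9, a subunit of the type I interferon response complex (1.34 ± 0.24, adjusted p = 0.0247), and the interferon-induced activator Irf1 (1.35 ± 0.32, adjusted p = 0.0490). Nlrc5, the class I transactivator, had the largest fold change of this list, from 0.562 ± 0.316 CPM in MRL/mpj (SD, n = 3) to 8.98 ± 6.03 CPM in MRL/lpr, and did not pass (3.93 ± 0.96, adjusted p = 0.0532, limma voom). For MRL/lpr+MSC 1 of the 20 was called, Irf7 (1.03 ± 0.21, adjusted p = 0.0403), and the median was 0.23. There Irf1 stood at 0.24 ± 0.13 (adjusted p = 0.324) and Nlrc5 at 2.33 ± 0.53 (adjusted p = 0.0534).

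A share of the interferon-induced genes rose in both groups. Of 19 tested in MRL/lpr, 9 were called higher and 0 lower, with a median of 1.76. Of 17 tested in MRL/lpr+MSC, 4 were called higher and 0 lower, with a median of 0.96. Examples in MRL/lpr were the antiviral effector Ifit1 (2.05 ± 0.35, adjusted p = 0.0218), the ubiquitin-like modifier Isg15 (1.72 ± 0.34, adjusted p = 0.0303), the GTPase Gbp3 (2.05 ± 0.41, adjusted p = 0.0336) and Ifi44 (2.74 ± 0.57, adjusted p = 0.0338, limma voom). Called genes that were low in MRL/mpj, such as Ifi44 (0.327 to 0.599 CPM), passed the filter only through libraries of the MRL/lpr groups. Such genes could not have been called lower, which favours positive values in these counts and medians. The interferon genes themselves were near absent, and 0 of 10 passed the filter. Counts of Ifng were 14, 9 and 4 over the MRL/lpr libraries, 0, 1 and 0 in MRL/lpr+MSC and 0 in each MRL/mpj library. A count of 0 allows up to 3 counts in a library, by counting error alone. Ifnb1 had 0 counts in all 9 libraries.

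The genes whose profile over the 9 libraries was most like the mean of the 10 were Irgm1, Gbp6, Psme2, Ctse and Gbp9. Likeness was the root mean square difference of z-scored log2 CPM, from 0.190 for Irgm1 to 0.217 for Gbp9 among 14936 genes, whose median was 1.24. Of the 10 themselves, Tap1 (0.197) and Psmb9 (0.199) lay nearest to their mean, and H2-D1 (1.14) lay farthest. Each of the 10 is part of that mean, which lowers its distance, whereas the other genes are not. Irgm1, an immunity-related GTPase, averaged 5.57 CPM in MRL/mpj, 27.9 in MRL/lpr and 10.6 in MRL/lpr+MSC.

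Class I is expressed by nearly every nucleated cell, and in bulk tissue more cells of a type and more RNA per cell cannot be told apart. Markers of T and NK cells moved with the 10 genes. Their 13 markers summed to 2.11 to 2.65 CPM in MRL/mpj, 8.24 to 28.2 CPM in MRL/lpr and 3.06 to 6.41 CPM in MRL/lpr+MSC. In MRL/lpr, 6 of 8 tested were called higher and 0 lower by limma voom. Among the 6 were the T cell receptor chains Cd3g (6.12, adjusted p = 0.00937) and Cd3e (4.59, adjusted p = 0.0255) and the adhesion molecule Cd2 (5.38, adjusted p = 0.0103). Genes as low in MRL/mpj as these, and Cd8a below, passed the filter only through the MRL/lpr libraries. They could not have been called lower, so the share called among those tested says little about direction. Cd3g, Cd2, Ncr1 and Gzmb were at 0 in all MRL/mpj libraries. In MRL/lpr+MSC against MRL/mpj only 1 of the 13 passed the filter, and it was not called. Of the class I receptors, the co-receptor Cd8a had 3, 1 and 0 counts in MRL/mpj, 84, 35 and 17 in MRL/lpr and 6, 8 and 17 in MRL/lpr+MSC, and was called in MRL/lpr (4.52 ± 0.94, adjusted p = 0.0358, limma voom). It was 1 of 3 receptors tested there. The replicate with the highest and that with the lowest sum of T and NK markers were those of the 10 genes in both MRL/lpr groups.

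B cell markers summed to 7.40 to 22.8 CPM in MRL/mpj and 14.3 to 28.0 CPM in MRL/lpr, and the B cell receptor component Cd79a was called higher (2.51, adjusted p = 0.0446, limma voom). Of the 7 B cell markers, 4 were tested there. Cd79a, at 0.163 to 0.699 CPM in MRL/mpj, also passed the filter only through the MRL/lpr libraries and could not have been called lower. Of the microglia markers 0 were called higher by limma voom. Their sum was 355 to 381 CPM in MRL/mpj, 289 to 367 CPM in MRL/lpr and 288 to 327 CPM in MRL/lpr+MSC, and 1 of 10 was called, Fcrls, which fell by 1.62 on the log2 scale in MRL/lpr (adjusted p = 0.0270). Endothelial markers summed to 305 to 346, 345 to 364 and 355 to 400.4 CPM in the same order of groups, with Cldn5, a tight junction protein, called higher in both MRL/lpr groups (0.73, adjusted p = 0.00830, and 0.87, adjusted p = 0.0118). Of 8 border macrophage and monocyte markers, 8 fibroblast markers, 8 choroid plexus markers, 6 astrocyte markers and 6 oligodendrocyte markers, 0 were called in MRL/lpr against MRL/mpj by limma voom. At an unadjusted p under 0.05 there were 3, 0, 1, 0 and 1 of them, in that order. Of the remaining lists, Hbb-bt of 4 erythrocyte markers and Fibcd1 of 12 hippocampal neuron markers were called lower there, and Rgs9 of 10 striatal and thalamic markers was called higher. Of the 12 hippocampal neuron markers 0 had a positive fold change in MRL/lpr, with a median of -0.39 and 6 at an unadjusted p under 0.05. Of the 8 choroid plexus markers all 8 were positive there, with a median of 1.61. The part of any of these cells in the levels of the 10 genes was not tested.

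**Figure D4:**
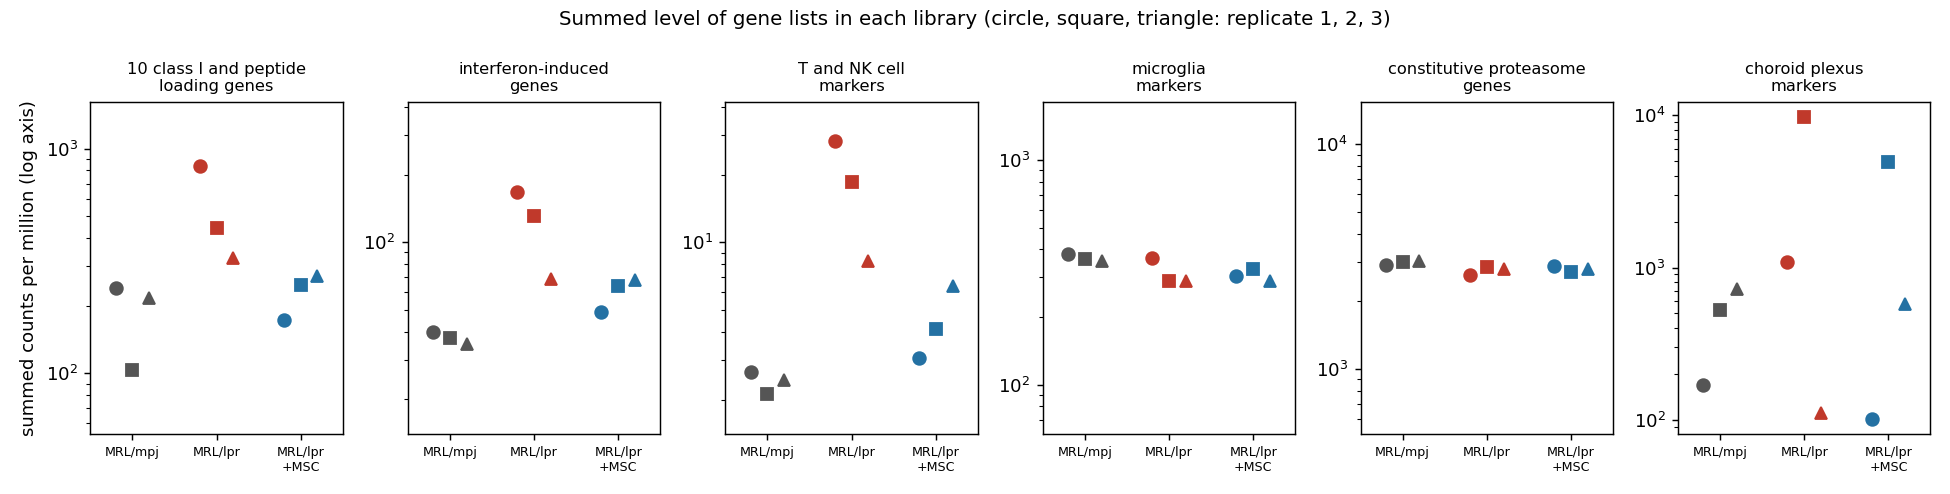
Summed CPM of 6 gene lists in each library, on log axes that differ in range. The sum of the 10 genes (104 to 240 CPM in MRL/mpj, 325 to 837 CPM in MRL/lpr), that of interferon-induced genes and that of T and NK cell markers are highest in MRL/lpr replicate 1, while the sums of constitutive proteasome genes lie below those of MRL/mpj in all 6 MRL/lpr libraries and those of microglia markers in 5 of 6.

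All of the 10 genes but B2m lie on chromosome 17, between 33915899 and 36042747 of GRCm38 (Tapbp to H2-T22). B2m lies on chromosome 2, at 122147686 to 122153083. Along this stretch of chromosome 17, MRL/mpj replicate 2 stood apart from the other controls. Of 104 genes there that passed the filter, 7 differed by more than 2-fold from both other MRL/mpj libraries in replicate 2 (6.73%), against 0.276% of 17009 genes elsewhere. For replicates 1 and 3 this held for 2 genes each (1.92%), against 0.464% and 0.982% elsewhere. Libraries of the MRL/lpr groups also stood apart from their own replicates here, by the same measure: MRL/lpr replicate 3 at 7 genes (6.73%, against 1.93% elsewhere), MRL/lpr replicate 1 at 6 (5.77%, against 1.18%) and MRL/lpr+MSC replicate 1 at 6 (5.77%, against 3.03%). The 7 genes of MRL/mpj replicate 2 were H2-K1, H2-D1, H2-Eb1, C4a, Egfl8, H2-Q1 and Msh5, which were singled out after their values were seen. The mismatch repair gene relative Msh5 stood at 0.499, 1.93 and 0.381 CPM in MRL/mpj and at 1.86 to 3.95 CPM in the MRL/lpr libraries. The complement gene C4a stood at 0.998, 3.09 and 1.09 CPM in MRL/mpj and at 2.54 to 3.90 CPM in the MRL/lpr libraries. Of the 7 genes, replicate 2 lay within the range of the 6 MRL/lpr libraries for 4 (C4a, Msh5, H2-Q1 and H2-Eb1) and below that range for 3 (H2-K1, H2-D1 and Egfl8).

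**Figure D5:**
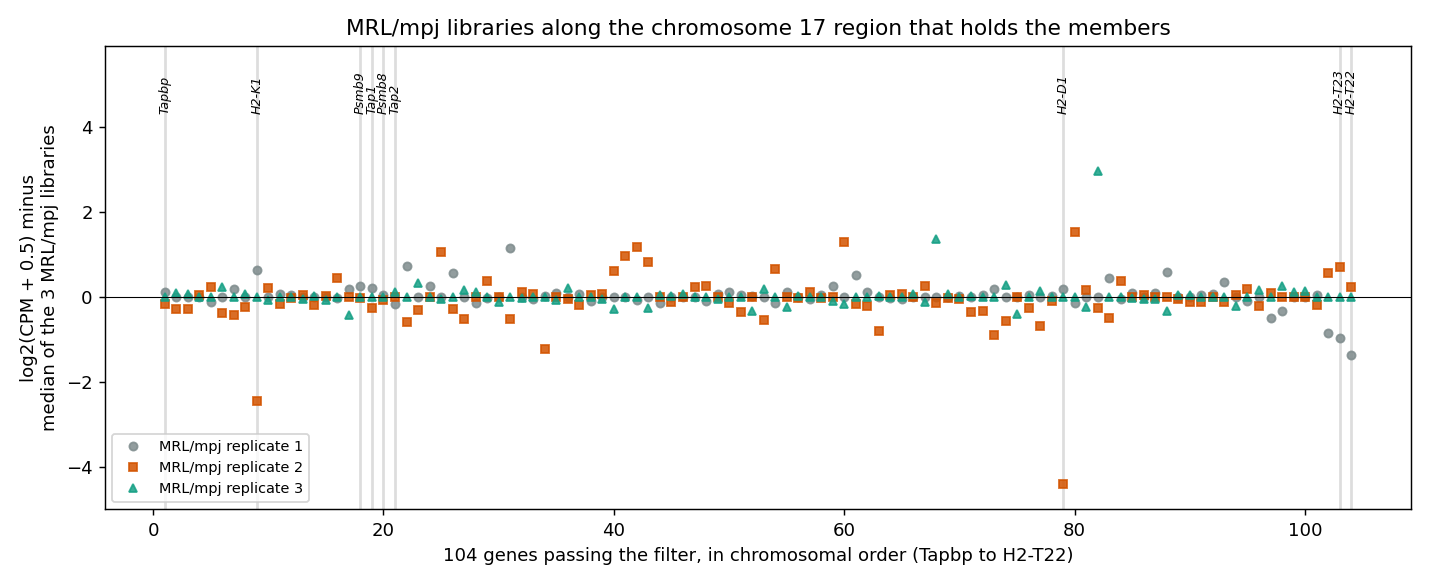
Difference of each MRL/mpj library from the median of the 3, on a log2(CPM + 0.5) scale, for 104 genes in chromosomal order from Tapbp to H2-T22. Replicate 2 (squares) lies far below the others at H2-K1 and H2-D1 and above them at several neighbours, while Psmb9, Tap1, Psmb8 and Tap2 lie close together in all 3 libraries.

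Results for the heavy chains rest on that library in part. Without MRL/mpj replicate 2, H2-D1 was lower in MRL/lpr+MSC than in MRL/mpj by -3.56 on the log2 scale (adjusted p = 0.0188, limma voom), and lower over all 6 MRL/lpr libraries by -2.77 (adjusted p = 0.0162). In MRL/lpr against MRL/mpj it was then -1.99 (adjusted p = 0.0919). The fold change of H2-K1 in MRL/lpr went from 3.49 to 2.36 without it (adjusted p = 0.161). H2-T23 in MRL/lpr went to 4.46 (adjusted p = 0.142) and B2m to 1.87 (adjusted p = 0.0746). By limma over all alternatives run, the adjusted p of H2-D1 ran from 0.0188 to 1 in MRL/lpr+MSC, from 0.0162 to 1 over all 6 libraries and from 0.0919 to 1 in MRL/lpr. In MRL/lpr that of H2-K1 ran from 0.0235 to 0.422, that of H2-T23 from 0.0121 to 0.280 and that of B2m from 0.00409 to 0.133. The origin of the difference between the control libraries was not tested.

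Heavy chain genes resemble each other, so their counts are uncertain. Reads were also aligned to the mm10 reference genome, not to a sequence of the MRL strains. How sequence differences from it bear on the counts of H2-K1 and H2-D1, and on their ratio, was not tested. Of all stretches of 100 bases in the annotated transcripts, 8.86% were shared with other genes for H2-T22, mostly with H2-T10, 3.59% for H2-D1, 3.15% for H2-T23 and 0.957% for H2-K1. For B2m, Tap1, Tap2, Psmb8 and Psmb9 this share was 0%. Tap1 and Psmb9 share 212 exon bases on opposite strands, and without strand their reads cannot be told apart there. Tapbp shares 149 exon bases with Zbtb22.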

How the data were processed

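RNA was measured in 9 hippocampus libraries made with a poly(A) kit. Per the study's methods, the authors used STAR for alignment to mm10 and HTSeq for gene counts, and computed FPKM from counts and gene length, while the submitters' processing notes name TopHat2. The strand setting is not given in the sources used here. The deposited count matrix held raw whole-number counts per gene for 47643 genes, of which 47224 were matched to symbols of a GRCm38 GENCODE annotation. The deposited FPKM values tracked these counts within 1% for 100% of 12235 genes and served as an alternative for levels. Total counts per library bear on counting error. The intervals also cover the spread between libraries, which could be wide, as for Psmb9 in MRL/lpr (coefficient of variation 61.7%).

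Counts were scaled by TMM, filtered on low counts by group, and tested over the whole matrix with limma voom and robust moderation (limma 3.58.1, R 4.3.3), each comparison on its own groups and the contrast of all 6 MRL/lpr libraries in a fit of all 9. A call needed an adjusted p under 0.05 (Benjamini-Hochberg, all genes tested) and a 1.5-fold change. The edgeR quasi-likelihood test that had been planned as the main test, and DESeq2, were not run, because the separator of the matrix kept its unit from being registered as counts. The fit used had been listed as a second test. Its script was tested on simulated data. The likeness measure used log2(CPM + 0.5) and genes averaging 1 CPM or more.

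Named were the 10 genes, up to 4 called genes of each other list by lowest adjusted p, a set of pathway genes whatever their values (Psmb10, Psmb5, Psmb6, Psmb7, Nlrc5, Irf1, Calr, Canx and Pdia3) and the 5 most alike. Some items that this rule selects are not reported here. The 10 genes and the lists were chosen with earlier results of these data known. No replicates were duplicates: the chi-square per gene between replicates was at least 10.7. Promoter sequences are from RefSeq (GRCm38.p6).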

Additional observations from a re-analysis of the deposited data

How the results depend on the processing

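Counts of called genes moved with most choices. For MRL/lpr against MRL/mpj the count of 3 became 1 with no filter on low counts, 5 with all 9 libraries in one fit, and, in alternatives chosen after seeing the data, 0 when tested against a 1.5-fold change, 7 with limma-trend and 9 with library quality weights. Leaving out 1 library gave 0 to 8. For MRL/lpr+MSC against MRL/mpj the count of 4 became 0 with all 9 libraries in one fit and 0 when tested against a 1.5-fold change, and leaving out 1 library gave 0 to 4. It was 0 without MRL/mpj replicates 1 or 3 and without MRL/lpr+MSC replicates 2 or 3, and 2 without MRL/mpj replicate 2. For all 6 MRL/lpr libraries the count of 3 became 0 when tested against a 1.5-fold change, 6 with limma-trend and 7 with library quality weights, and leaving out 1 library gave 0 to 8. It was 0 without MRL/mpj replicate 3, 1 without MRL/mpj replicates 1 or 2 or MRL/lpr+MSC replicates 2 or 3, and 8 without MRL/lpr replicate 3. Treating both MRL/lpr groups as 1 group gave 2. Leaving out a library also leaves fewer residual degrees of freedom. For MRL/lpr+MSC against MRL/lpr the count was 0 under every alternative run. H2-D1 reversed in MRL/lpr against MRL/mpj without MRL/mpj replicate 1 (0.59) or replicate 3 (0.43), and its value over single libraries left out ran from -1.99 to 0.59. The other 9 genes kept their direction in every comparison and alternative run.

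Correlations ran from -0.20 to 0.43 for same-numbered libraries and from -0.45 to 0.24 for differently numbered ones. Between MRL/lpr and MRL/lpr+MSC, same-numbered libraries stood at -0.20, 0.26 and 0.43 in replicates 1, 2 and 3. No label states a pairing, and whether the numbers mark shared handling was not tested. With the replicate number as a block the count was 7 in MRL/lpr and 0 in MRL/lpr+MSC against MRL/mpj, 4 with all 6 libraries and 0 between the MRL/lpr groups. The planned edgeR quasi-likelihood, glmTreat and DESeq2 fits were not run. With FPKM the factor between the highest and the lowest gene was 121 in place of 132, with Psmb9 in place of Psmb8 as the lowest. With 3 libraries a group, intervals of single genes stayed wide, and at 1.38 to 1.80 CPM Psmb8 and Psmb9 rested on 26 to 38 counts in each control library.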
